A study of Homo sapiens with 4 samples.

Results

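The APOBEC genes encode zinc-dependent enzymes that turn cytosine into uracil in single-stranded DNA or in RNA. The 9 genes described here, APOBEC1, APOBEC2, APOBEC3A, APOBEC3B, APOBEC3C, APOBEC3D, APOBEC3F, APOBEC3G and APOBEC3H, were taken by name from a table of 2864 genes with values, and all 9 were in it. They were read in 4 RNA libraries of the human melanoma line A375, a line that carries an activating BRAF mutation. A375P was the untreated parental culture. A375R was a strain made resistant to vemurafenib, an inhibitor of mutant BRAF kinase, by stepwise raised doses and kept under the drug; whether it is 1 clone was not given in the sources used here. A375+DMSO had been given the solvent DMSO at 1‰ for 48 h, and A375+VEM had been given vemurafenib at 2 μM for 48 h; the labels do not list the solvent of A375+VEM separately. All 4 carried the genotype label Wild Type, grew in the same serum-containing medium and shared 1 batch label. The study set A375R beside A375P to look at lasting resistance, and A375+VEM beside A375+DMSO to look at the short response to the drug.

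Each condition had 1 library, so conditions could not be tested against each other and no p-value is given. The authors deposited the reads counted per gene and the TPM, which is the count per gene length scaled to a fixed total per library. Ratios of single genes below are ratios of TPM with an exact 95% Clopper-Pearson interval on the reads of both libraries, and levels have an exact Poisson interval; both cover counting error only and compare libraries, not conditions. A call of higher or lower in a pair needed a change of more than 1.5-fold in (TPM + 0.1), and genes below a TPM of 1 in both libraries of the pair were left out. Log2 ratios are on the (TPM + 0.1) scale. The counts over the genes of the table, an alphabetical part of the gene list, ran from 1891215 to 2054277 per library, so they do not give the depth of a library. The 9 genes took 1374 of these reads in A375P, 2411 in A375+DMSO, 1560 in A375+VEM and 5260 in A375R. Of the 6 melanocytic genes in the table, BCAN, BACE2 and APOE had a TPM above 10 in every library. APOD ran from 0.457 in A375R to 11.8 in A375+VEM, BIRC7 from 0.0944 in A375R to 1.66 in A375+VEM, and the transporter gene ABCB5 was at or below 0.0978. The 16 blood cell markers, fixed because leukocytes are a usual source of APOBEC3A, APOBEC3G and APOBEC3H RNA, summed to a TPM of 111 in A375P, 142 in A375+DMSO, 158 in A375+VEM and 172 in A375R, with 7, 2, 3 and 2 of them at 0 and 2, 3, 4 and 3 at a TPM of 1 or more. Most of that sum was ADGRG1, whose TPM ran from 105 to 149, and ADGRE1, whose TPM was 4.50, 13.1, 16.9 and 19.1 in the same order of libraries. Of the other 14 markers, 3 of myeloid cells passed a TPM of 1 in a library: AZU1 at 3.29 and AOAH at 1.28 in A375+VEM, from 24 and 26 reads, and BPI at 1.69 in A375+DMSO and 1.12 in A375R, from 25 and 16 reads. The remaining markers had at most 9 reads in any library, among them C1QA with 0 reads in every library, AIF1 with at most 1 and BTK with at most 4. The part of blood cells in the APOBEC levels was otherwise not tested.

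The APOBEC3 proteins are best known as restriction factors, which deaminate the DNA copies of retroviruses and retrotransposons, and several of their genes are inducible by interferon. In tumors, APOBEC3A and APOBEC3B are known as sources of cytosine mutations at TC sites. APOBEC1 edits the apolipoprotein B messenger RNA in the gut, together with the cofactor encoded by A1CF, and APOBEC2 is a muscle protein with little known deaminase activity. On hg19, the build named in the submitters' processing notes, the 7 APOBEC3 genes lay side by side on the forward strand of chromosome 22, from 39353527 to 39500072, a span of 147 kb. Their order was APOBEC3A, APOBEC3B, APOBEC3C, APOBEC3D, APOBEC3F, APOBEC3G and APOBEC3H. The closest neighbors were APOBEC3C and APOBEC3D, 2274 bp apart, and APOBEC3D and APOBEC3F, 7416 bp apart. APOBEC1 lay on chromosome 12 (7801996 to 7823195, reverse strand) and APOBEC2 on chromosome 6 (41020940 to 41032630, forward strand). The genes are near copies of each other in places, which bears on how reads are counted. Of all 50-base stretches in their GENCODE coding transcripts, 38.7% for APOBEC3B, 31.1% for APOBEC3A, 21.3% for APOBEC3F, 19.1% for APOBEC3G, 14.8% for APOBEC3D and 1.16% for APOBEC3C occurred in another member as well, and 0% for APOBEC3H, APOBEC1 and APOBEC2. How reads on shared stretches were assigned is not given in the sources used here, so levels of APOBEC3A, APOBEC3B, APOBEC3D, APOBEC3F and APOBEC3G are uncertain by the reads they could exchange.

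RefSeq promoter sequence (GRCh38.p14, 250 bases before the transcript start) was at hand for 3 of the 9 genes, APOBEC1, APOBEC2 and APOBEC3H. APOBEC3H and APOBEC2 are shown, as the cluster gene that was near 0 in A375P and above it in the other libraries, and as a gene outside the cluster, with 13 to 22 reads per library. Capitals mark a TATA box.
APOBEC3H, chr22:39096994-39097243, forward strand: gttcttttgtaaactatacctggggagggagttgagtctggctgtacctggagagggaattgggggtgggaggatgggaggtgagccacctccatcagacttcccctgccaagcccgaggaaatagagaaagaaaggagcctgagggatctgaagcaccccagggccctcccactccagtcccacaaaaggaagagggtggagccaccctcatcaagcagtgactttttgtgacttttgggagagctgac
APOBEC2, chr6:41052952-41053201, forward strand: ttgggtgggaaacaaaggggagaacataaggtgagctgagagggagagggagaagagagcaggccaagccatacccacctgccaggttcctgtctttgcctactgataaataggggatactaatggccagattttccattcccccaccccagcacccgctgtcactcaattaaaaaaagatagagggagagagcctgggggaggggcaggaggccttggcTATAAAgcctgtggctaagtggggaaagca
The letters searched on both strands were TATAAA, the interferon-stimulated response element GAAANNGAAA, the gamma-activated site TTCNNNGAA and the NF-kB motif. The promoter of APOBEC2 held the TATA box, beginning 30 bases before the start, and none of the others. In the windows of APOBEC3H and APOBEC1 none of the 4 was found. Over 35116 promoters of the same length, 10.7% held the TATA letters, 3.02% the response element, 6.57% the gamma-activated site and 5.21% the NF-kB motif.

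The APOBEC3 RNA of the 4 libraries differed mainly in APOBEC3B, APOBEC3C and APOBEC3G. The summed TPM of the 7 APOBEC3 genes was 99.0 in A375P, 177 in A375+DMSO, 120 in A375+VEM and 397 in A375R, from 1351, 2397, 1541 and 5247 reads. A375R stood above the 3 other libraries, and A375P had the least. In such bulk RNA, fewer cells that express a gene and less of its RNA per cell cannot be told apart. The sum in A375R was 4.01 times that in A375P (3.76 to 4.28) and 2.24 times that in A375+DMSO (2.13 to 2.36). Between the cultures without vemurafenib it was 1.79-fold higher in A375+DMSO than in A375P (1.67 to 1.92). The sum in A375+VEM was 0.677 of that in A375+DMSO (0.631 to 0.726), and 1.21 times that in A375P (1.12 to 1.31), so the direction for the drug depended on which culture served as the control.

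**Figure D1:**
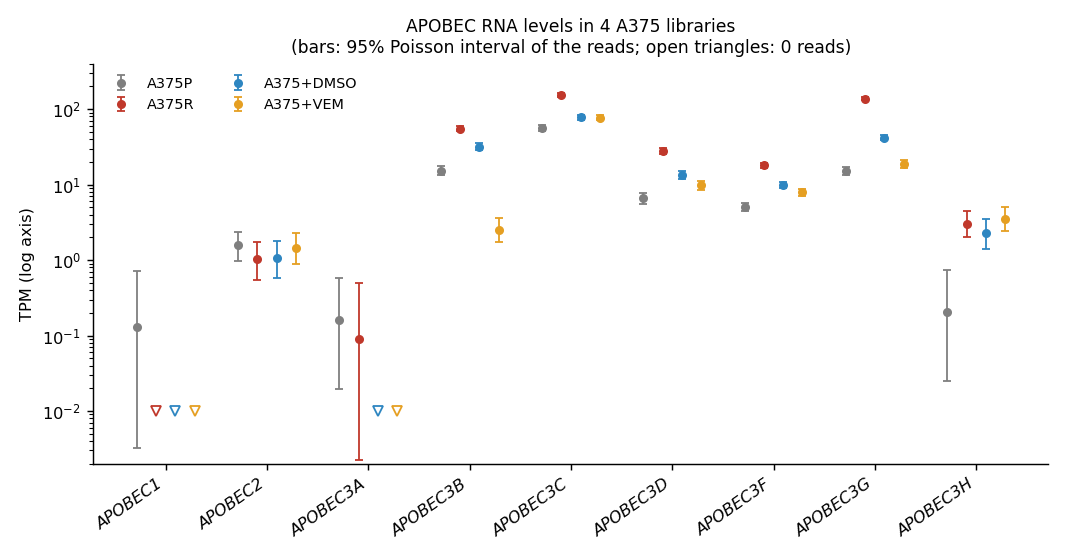
TPM of the 9 APOBEC genes (log axis) in the 4 libraries; points are single libraries, bars are 95% Poisson intervals of the reads, and open triangles at the foot stand for 0 reads. APOBEC3C is the highest gene in every library, APOBEC3B has its lowest point, 2.54, in A375+VEM, and APOBEC3G reaches 138 in A375R.

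APOBEC3G, the cytidine deaminase that blocks HIV lacking Vif, had the largest ratio between A375R and A375P among the well-covered members. It had 240 reads in A375P, 615 in A375+DMSO, 271 in A375+VEM and 1966 in A375R, or a TPM of 15.3, 41.9, 18.6 and 138. A375R was far above the others, A375+DMSO was in between, and A375P and A375+VEM were close. The level in A375R was 9.07 times that in A375P (7.93 to 10.4, log2 ratio 3.17), which placed APOBEC3G 16 from the top of 1689 genes compared. Against A375+DMSO the ratio was 3.30 (3.01 to 3.62, log2 ratio 1.72), 22 from the top of 1702 genes. A375+VEM had 0.444 of the level of A375+DMSO (0.383 to 0.513, log2 ratio -1.17), a 2.25-fold lower level, but 1.22 times the level of A375P (1.02 to 1.46), so the sign turned with the control. The gap between A375+DMSO and A375P, neither of which had the drug, was 2.75-fold (2.36 to 3.20).

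The larger ratio of APOBEC3G can be put without any scaling between libraries, as the ratio of its ratio to that of another member. Between A375R and A375P, its ratio was 3.31 times that of APOBEC3C (2.80 to 3.93), 2.52 times that of APOBEC3B (2.03 to 3.11), 2.52 times that of APOBEC3F (2.05 to 3.10) and 2.15 times that of APOBEC3D (1.70 to 2.72). Each of these intervals lay above 1, so APOBEC3G differed more between the 2 libraries than its neighbors did, beyond counting error. Against APOBEC3H, which had 2 reads in A375P, the figure was 0.607 with an interval from 0.0695 to 2.44, and the order of this pair was not detectable at this depth. Between A375R and A375+DMSO the ratio of APOBEC3G exceeded those of the other 5 APOBEC3 genes compared, by 1.60 (1.34 to 1.90, against APOBEC3D) to 2.49 (1.33 to 4.60, against APOBEC3H).

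APOBEC3B, the member found mainly in the nucleus, was the gene that set A375+VEM apart. It had 201 reads in A375P, 392 in A375+DMSO, 31 in A375+VEM and 654 in A375R, which gave a TPM of 15.2, 31.9, 2.54 and 54.9. A375+VEM was below all other libraries and A375R above them. The level in A375+VEM was 12.6-fold below A375+DMSO (8.70 to 18.7, log2 ratio -3.60), 22 from the bottom of 1784 genes compared, and 6.01-fold below A375P (4.10 to 9.08). In A375R, which was also under vemurafenib, APOBEC3B was 3.60-fold above A375P (3.07 to 4.24) and 1.72-fold above A375+DMSO (1.52 to 1.96). A375+DMSO was 2.09-fold above A375P (1.76 to 2.49). Set against the other members between A375+VEM and A375+DMSO, the ratio of APOBEC3B was 0.0800 of that of APOBEC3C (0.0528 to 0.117), 0.0987 of that of APOBEC3F (0.0642 to 0.147), 0.111 of that of APOBEC3D (0.0709 to 0.168) and 0.180 of that of APOBEC3G (0.117 to 0.268). The table lists an antisense gene, APOBEC3B-AS1, on the reverse strand from 39387564 to 39394225, which overlaps the last 1221 bp of APOBEC3B. It had 0 reads in every library. The strand setting of the counting is not given in the sources used here.

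APOBEC3C, a single-domain member with weak activity against HIV, was the most abundant of the 9 genes per length in every library. Its TPM was 56.4 in A375P, 77.8 in A375+DMSO, 77.5 in A375+VEM and 154 in A375R, from 545, 701, 694 and 1347 reads. In A375R it ranked at the 97.0 percentile of the genes of the table. The levels of A375+DMSO and A375+VEM could not be told apart (ratio 0.997, 0.896 to 1.11), while A375R was 2.74-fold above A375P (2.48 to 3.03) and 1.98-fold above A375+DMSO (1.81 to 2.18). The step from A375P to A375+DMSO, 1.38-fold (1.23 to 1.54), was above counting error but under the threshold.

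APOBEC3D and APOBEC3F, neighbors with 2 deaminase domains and activity against retroviruses, ran in parallel. APOBEC3D had 143, 272, 195 and 544 reads in A375P, A375+DMSO, A375+VEM and A375R and a TPM of 6.67, 13.6, 9.81 and 28.1. APOBEC3F had 218, 396, 318 and 708 reads and a TPM of 5.05, 9.84, 7.96 and 18.2. Both were highest in A375R and lowest in A375P. Within a library the TPM of APOBEC3D was 1.32 times that of APOBEC3F in A375P, 1.38 in A375+DMSO, 1.23 in A375+VEM and 1.55 in A375R. The ratio between A375R and A375P was 4.21 for APOBEC3D (3.50 to 5.10) and 3.60 for APOBEC3F (3.08 to 4.20), and the second was 0.854 times the first (0.667 to 1.09), an interval that spans 1. Between A375+VEM and A375+DMSO the ratios were 0.722 for APOBEC3D (0.598 to 0.871) and 0.809 for APOBEC3F (0.696 to 0.940), below 1 beyond counting error but short of the threshold. Against A375P both were above 1 in A375+VEM, at 1.47 for APOBEC3D (1.18 to 1.84) and 1.57 for APOBEC3F (1.32 to 1.88). The genes share part of their sequence, and reads could pass between them.

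APOBEC3H, a single-domain restriction factor at the end of the cluster, was the one member higher in both libraries under vemurafenib than in both without. It had 2 reads in A375P, 21 in A375+DMSO, 32 in A375+VEM and 27 in A375R, a TPM of 0.204, 2.30, 3.53 and 3.05. The library that stood apart was A375P, and the other 3 had overlapping Poisson intervals, from 2.01 to 4.44 in A375R, 1.42 to 3.51 in A375+DMSO and 2.41 to 4.98 in A375+VEM. The ratio between A375R and A375P was 14.9 with an interval from 3.76 to 130, and that between A375+DMSO and A375P was 11.3 (2.75 to 99.0). A375+VEM against A375+DMSO gave 1.53 (0.858 to 2.80), past the threshold but with an interval that spans 1, and short of the threshold once ratios were scaled to a median of 1. A375R against A375+DMSO gave 1.33 (0.723 to 2.47). Over the 1817 genes that reached a TPM of 1 in any library, 12.9% were above in both libraries under vemurafenib and 7.26% below in both, against 1 and 0 of the 7 members compared.

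APOBEC3A, APOBEC1 and APOBEC2 carried little RNA. APOBEC3A, a potent DNA mutator of myeloid cells and keratinocytes, had 2 reads in A375P, 1 in A375R and 0 in A375+DMSO and A375+VEM. APOBEC1 had 1 read in A375P and 0 in the others. A count of 0 allows up to 3 reads, which in A375+VEM is a TPM of 0.262 for APOBEC3A and 0.418 for APOBEC1, while the Poisson interval used for levels reaches 0.322 and 0.514 there. Neither gene reached the filter, and no ratio is given for them. APOBEC2 had 22, 14, 19 and 13 reads and a TPM of 1.57, 1.07, 1.46 and 1.03 in A375P, A375+DMSO, A375+VEM and A375R. Its 4 Poisson intervals overlapped, and its ratios of 0.654 for A375R against A375P (0.303 to 1.36) and 1.37 for A375+VEM against A375+DMSO (0.650 to 2.95) spanned 1, so a difference was not detectable at this depth. Of the related genes, APOBEC4 had 0, 2, 5 and 2 reads in the same order of libraries, and A1CF had 12, 9, 3 and 7.

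The order of the members within a library changed below the first place. In A375R it was APOBEC3C, APOBEC3G, APOBEC3B, APOBEC3D, APOBEC3F, APOBEC3H and APOBEC2, and no neighbors in that order had overlapping intervals. In A375P the levels of APOBEC3G and APOBEC3B could not be told apart, with a TPM ratio of 1.00 (0.827 to 1.21). The single intervals of APOBEC3D and APOBEC3F overlapped there, but the TPM ratio of APOBEC3D to APOBEC3F, 1.32 (1.06 to 1.64), lay above 1. In A375+DMSO the order was that of A375R, with APOBEC3H and APOBEC2 overlapping. In A375+VEM APOBEC3B came after APOBEC3D, APOBEC3F and APOBEC3H, where its interval overlapped those of APOBEC3H and APOBEC2, and the TPM of APOBEC3G was 7.33 times that of APOBEC3B (5.05 to 11.0).

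The makeup of APOBEC3 RNA shifted with these levels. APOBEC3C made up 57.0% of the summed TPM in A375P, 43.9% in A375+DMSO, 64.6% in A375+VEM and 38.9% in A375R. APOBEC3G made up 15.4%, 23.6%, 15.5% and 34.9%, and reached a TPM of 0.897 times that of APOBEC3C in A375R (0.836 to 0.962) against 0.271 times in A375P (0.232 to 0.316). APOBEC3B made up 15.4%, 18.0%, 2.12% and 13.8%. APOBEC3D stayed between 6.73% and 8.18% and APOBEC3F between 4.58% and 6.63%. The share of APOBEC3H ran from 0.206% in A375P to 2.94% in A375+VEM. Without APOBEC3C, the sum in A375R was 5.70 times that in A375P, and the sum in A375+VEM was 0.426 of that in A375+DMSO.

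**Figure D2:**
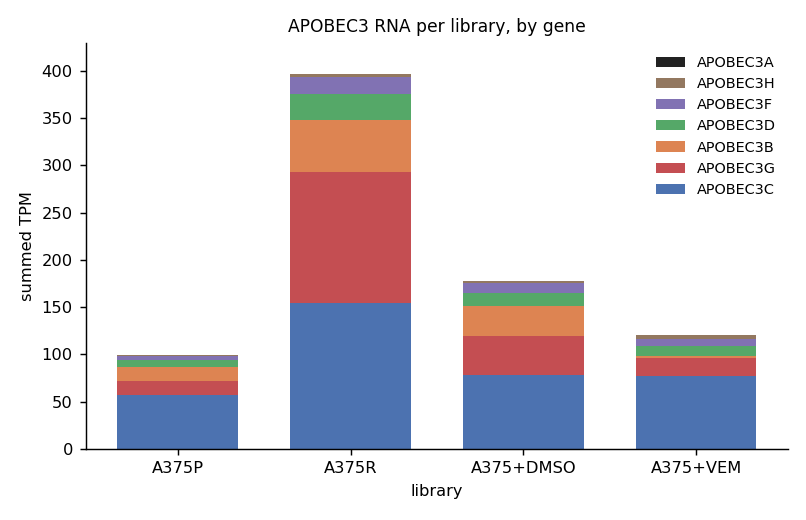
Summed TPM of the APOBEC3 genes per library, stacked by gene, with 1 library per bar and no error drawn. The bar of A375R reaches 397, with APOBEC3G at 34.9% of it, and the segment of APOBEC3B shrinks to 2.12% in A375+VEM.

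Between A375R and A375P, 6 of the 7 members compared were called higher (APOBEC3B, APOBEC3C, APOBEC3D, APOBEC3F, APOBEC3G and APOBEC3H) and 0 lower. APOBEC2 was not called, as its log2 ratio of -0.57 in (TPM + 0.1) was just short of the threshold. Its TPM ratio of 0.654 was past 1.5-fold, with an interval that spans 1. Over all 1689 genes compared in this pair, 26.8% were higher and 17.5% lower. The median log2 ratio was 1.84 for the members and 0.10 for all genes. The 2 members under the filter, APOBEC1 and APOBEC3A, are not in these counts.

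Between A375+VEM and A375+DMSO, 1 of 7 was called higher (APOBEC3H) and 2 lower (APOBEC3B and APOBEC3G), where the background over 1784 genes was 26.5% higher and 19.7% lower. Counts this small cannot be told apart from the background in either direction, and no result about the members is drawn from them. The median log2 ratio of the members was -0.30, and that of all genes was 0.11, a shift of the whole table that scaling to the median removes.

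The cultures without vemurafenib differed as well. Between A375+DMSO and A375P, 5 of 7 were higher (APOBEC3B, APOBEC3D, APOBEC3F, APOBEC3G and APOBEC3H) and 0 lower, against 26.8% and 18.9% of 1720 genes, with a median log2 ratio of 1.02 for the members and 0.09 for all. Between A375R and A375+DMSO, 5 of 7 were higher (APOBEC3B, APOBEC3C, APOBEC3D, APOBEC3F and APOBEC3G) and 0 lower, against 10.5% and 9.99% of 1702 genes, with medians of 0.88 and 0.02. Between A375+VEM and A375P, 2 were higher (APOBEC3F and APOBEC3H) and 1 lower (APOBEC3B), against 36.9% and 25.3% of 1782 genes. These pairs share libraries with the study's own pairs and are no separate evidence. Of the 7 members, 5 had their highest TPM in A375R, which 20.9% of 1817 genes did. For 4 of them, APOBEC3C, APOBEC3D, APOBEC3F and APOBEC3G, A375P was also the lowest, as it was for 7.15% of the genes. The members sit in 1 cluster and share sequence, so they are not independent of each other.

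**Figure D3:**
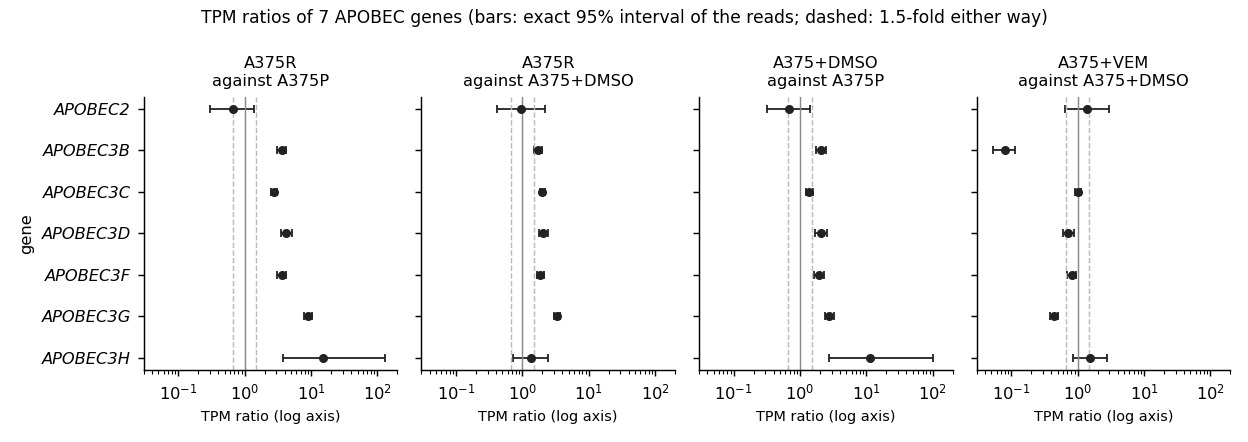
TPM ratios (log axis) of the 7 APOBEC genes that passed the filter, in 4 pairs of libraries, with exact 95% intervals of the reads and dashed lines at 1.5-fold either way. In the first 3 panels the APOBEC3 genes lie to the right of 1, and in the panel of A375+VEM against A375+DMSO the point of APOBEC3B lies alone at 0.0796. Calls used (TPM + 0.1), so APOBEC2, at 0.654 in A375R against A375P, lies past the dashed line without a call.

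**Figure D4:**
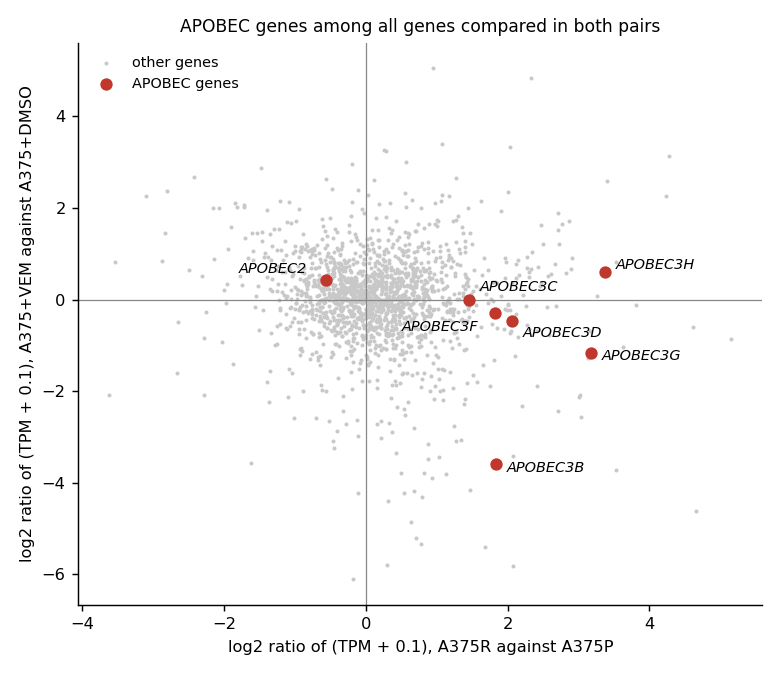
Log2 ratio of A375R against A375P (horizontal) and of A375+VEM against A375+DMSO (vertical) for the 1656 genes compared in both pairs, 1 point per gene, with the 7 APOBEC genes in red. APOBEC3G lies at 3.17 and -1.17, APOBEC3B at 1.84 and -3.60, and APOBEC2 at -0.57 and 0.42.

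The genes whose pattern over the 4 libraries lay nearest to a member were found among 1481 genes that reached a TPM of 1 in every library, by the root mean square difference of the centered log2(TPM + 0.1). With 4 points this is a description of likeness only. For APOBEC3B they were ANLN, a scaffold of the cleavage furrow (0.35), ARHGAP11A (0.37) and ASF1B, a histone chaperone (0.47). The TPM of ANLN was 52.0, 78.4, 6.97 and 95.6 in A375P, A375+DMSO, A375+VEM and A375R. No other member was near APOBEC3B, since the closest, APOBEC3G, ranked 79 (1.09). APOBEC3F had ABLIM3 (0.09), the aminopeptidase gene ANPEP (0.11) and APOBEC3D (0.12) as its nearest, and APOBEC3D had APOBEC3F (0.12), ABLIM3 (0.16) and C1orf106 (0.17). APOBEC3C had BIVM (0.09), BMS1P9 (0.13) and the ligand gene BMP6 (0.13), with APOBEC3F at rank 10 and APOBEC3D at rank 26. APOBEC3G had the racemase gene AMACR (0.43), the sterol transporter gene ABCG1 (0.45) and C1QTNF3-AMACR, a read-through of AMACR that shares its exons (0.46). Among the members, APOBEC3D ranked 5 (0.52), APOBEC3F 11 (0.64) and APOBEC3C 28 (0.77) for APOBEC3G. APOBEC2 lay nearest to ACIN1 (0.02), C16orf70 (0.03) and AUP1 (0.04), and its own 13 to 22 reads limit that match. With a pseudocount of 1, 13 of these 18 genes stayed among the 3 nearest of their member, and BMS1P9 and BMP6 for APOBEC3C and all 3 genes for APOBEC2 did not. APOBEC3A, APOBEC1 and APOBEC3H had too few reads in 1 library or more for this search.

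**Figure D5:**
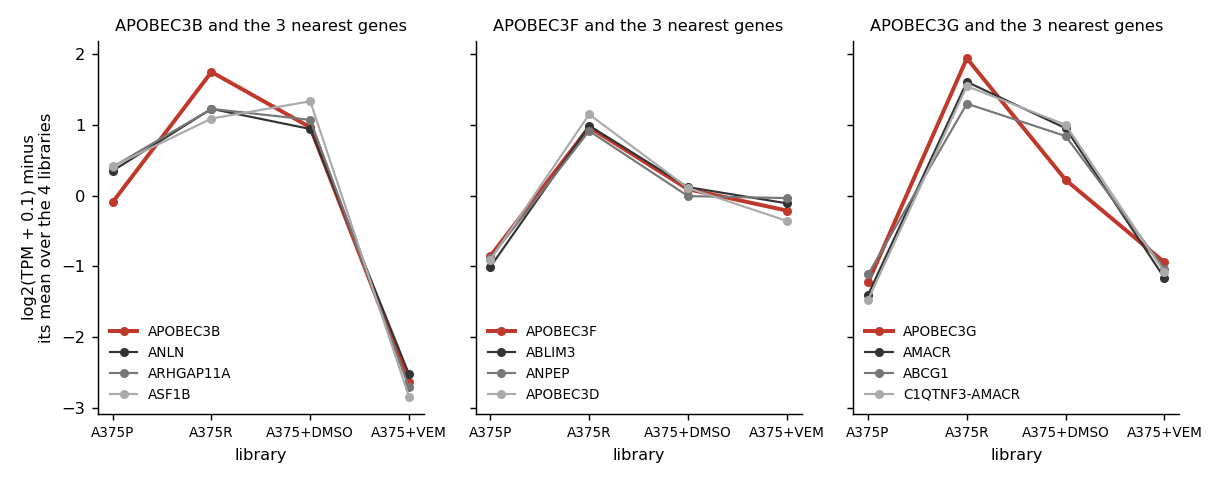
Log2(TPM + 0.1) minus its mean over the 4 libraries for APOBEC3B, APOBEC3F and APOBEC3G (red) and the 3 nearest genes of each; points are single libraries and lines only join points of a gene. APOBEC3B and its nearest genes share the drop in A375+VEM, APOBEC3F and its nearest genes run close together, and APOBEC3G runs above its nearest genes in A375R and below them in A375+DMSO.

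Lists of related genes give the surroundings of these values. Over all genes compared, 26.8% were higher and 17.5% lower between A375R and A375P, and 26.5% and 19.7% between A375+VEM and A375+DMSO. The shares were 10.5% and 9.99% between A375R and A375+DMSO, and 26.8% and 18.9% between A375+DMSO and A375P. Of the 16 cell division genes, 15 were lower in A375+VEM than in A375+DMSO and 0 higher (median log2 ratio -3.80), and 10 were higher in A375R than in A375P (median 0.69). APOBEC3B, at -3.60 and 1.84, lay near that median in the first pair and above it in the second. Between A375R and A375+DMSO 1 of the 16 was higher (median 0.14), where the log2 ratio of APOBEC3B was 0.78. Of the 9 interferon-inducible genes, 5 were higher in A375R than in A375P and 0 lower (median 1.02), among them APOL3 at 1.98, AIM2, a sensor of cytosolic DNA, at 1.63, and BST2, which tethers virions, at 1.45. Between A375+VEM and A375+DMSO 4 of the 9 were higher, among them AIM2 at 2.14 and B2M, the light chain of MHC class I, at 0.66, while APOBEC3G was at -1.17. Between A375R and A375+DMSO 3 of the 9 were higher, APOL3 at 1.43, BATF2 at 0.62 and APOL6 at 0.59, and 1 was lower, BST2 at -1.91 (median 0.12), where APOBEC3G was at 1.72. Of the 8 NF-kB target genes compared, 5 were higher in A375R than in A375P (median 1.04) and 6 higher than in A375+DMSO (median 1.12). BCL2A1, a survival factor, was at 2.28 and 3.12, and BIRC3, an inhibitor of apoptosis, at 1.46 and 2.81. The largest log2 ratio of the list between A375R and A375P was that of C3, at 3.41. Between A375+VEM and A375+DMSO 2 of the 8 were higher, among them C3 at 2.59, and 2 were lower (median -0.18). Between A375+DMSO and A375P 4 of the 8 were lower and 1 higher (median -0.68), where 5 of the 7 APOBEC members compared were higher. In that pair 9 of the 16 cell division genes were higher and 0 lower (median 0.64). Of the 9 interferon-inducible genes, 3 were higher there, among them BST2 at 3.36, and 1 was lower (median 0.48).

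A list of other deaminases and a list of DNA repair genes come last. Both are short and stand beside the same shares over all genes, 26.8% higher and 17.5% lower between A375R and A375P. Between A375+VEM and A375+DMSO the shares were 26.5% and 19.7%. No result about these lists is drawn from their counts. Of the 9 adenosine and tRNA deaminase genes compared, 2 were higher in A375R than in A375P and 0 lower (median log2 ratio 0.18), ADA, which deaminates free adenosine, at 2.12 and AMPD3 at 0.65. ADAR, the main RNA adenosine deaminase, had a TPM of 97.3, 136, 156 and 132 in A375P, A375+DMSO, A375+VEM and A375R. Between A375+VEM and A375+DMSO 2 of the 9 were lower, ADAT2, a subunit of the tRNA deaminase, at -1.79 and AMPD3 at -1.64, and 1 was higher, ADARB1 at 0.80. The 6 repair genes were the AP endonuclease genes APEX1 and APEX2, APTX and APLF, which act on strand breaks, and ALKBH2 and ALKBH3, which reverse alkylation damage. Of these, APLF was higher in A375R than in A375P, at 0.86, and ALKBH2 and ALKBH3 were lower, at -0.61 and -0.70 (median of the list -0.01). The TPM of APEX1, which cuts the site left after uracil removal, was 118, 190, 191 and 157. In A375+VEM 2 of the 6, APEX2 at -0.99 and ALKBH2 at -0.97, were lower than in A375+DMSO.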

How the data were processed

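RNA of 4 A375 cultures, 1 library each, was read as gene counts and TPM. The authors deposited whole-number counts without normalization and TPM, which is the count per gene length scaled over the whole library. The submitters' processing notes name hg19, HISAT2, TopHat2, Bowtie2 and HISAT; versions and the counting program are not given in the sources used here. The gene table used here ends at names in CAC, and 1 incomplete row was left out. Groups came from the labels. Ratios, intervals and calls were made as given above; intervals of summed TPM used the delta method. The calls and the interval of single-gene ratios were tested on simulated Poisson counts without variation between cultures. The other steps were not part of that test. Members, lists and tests were chosen with earlier results of these data known. All 9 members, genes of the lists and the 3 nearest genes per member with at least 10 reads in every library were named. Promoters and their windows came from RefSeq (GRCh38.p14), and shared stretches from GENCODE transcripts. Alternatives were other pseudocounts, filters, scaling, threshold and control. Python 3.11.15, numpy 2.4.6, pandas 2.3.3, scipy 1.17.1 and matplotlib 3.10.9 were used.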

Additional observations from a re-analysis of the deposited data

Results flagged for a closer look

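For 4 of the 9 members the ratios of the 2 study pairs had opposite directions, each with an interval beyond 1, higher in A375R than in A375P and lower in A375+VEM than in A375+DMSO. The log2 ratios were 1.84 and -3.60 for APOBEC3B, 2.06 and -0.47 for APOBEC3D, 1.83 and -0.30 for APOBEC3F, and 3.17 and -1.17 for APOBEC3G. With 1 library per condition this contrast between pairs was not tested, and for APOBEC3D and APOBEC3F the second value was short of 1.5-fold. The share of all genes with such a contrast was not counted, so the 4 members are listed without a background. Past 1.5-fold, 26.8% of all genes compared were higher in A375R than in A375P. In the other pair 19.7% were lower in A375+VEM than in A375+DMSO. With A375P as the control of A375+VEM, APOBEC3B alone of the 4 stayed lower, at a log2 ratio of -2.54.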

How the results depend on the processing

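With 1 library per condition no library could be left out. No paired analysis was possible because each condition has 1 library and the result comes from no test. With A375P in place of A375+DMSO, 2 members were higher and 1 lower in A375+VEM (1 and 2 before), the summed APOBEC3 ratio was 1.21 in place of 0.677, and APOBEC3G turned from -1.17 to 0.28 on the log2 scale; with A375+DMSO in place of A375P the summed ratio of A375R was 2.24 in place of 4.01. For A375+VEM against A375+DMSO the count of higher members went from 1 to 0 with a pseudocount of 1, a TPM of at least 5, scaling to the median or a threshold of 2-fold. Members lower in A375R than in A375P went from 0 to 1 with a pseudocount of 0.01, without a filter or with scaling to the median, and members lower in A375+DMSO than in A375P from 0 to 2 without a filter and to 1 with that scaling. At 2-fold, 2 members in place of 5 were higher in A375R than in A375+DMSO. Scaling to the median gave summed ratios of 3.75 for A375R against A375P and 0.629 for A375+VEM against A375+DMSO. Without APOBEC3C the summed ratios were 5.70, 0.426, 2.34 (A375+DMSO against A375P, 1.79 before) and 2.44 (A375R against A375+DMSO, 2.24 before). Of 115 log2 ratios of single members under an alternative, 101 stayed within counting error, 13 were counted as moved and 1, of APOBEC3G, as turned. Of the 13, 11 came with the other control. Among these, APOBEC3D and APOBEC3F also changed sign in A375+VEM, from -0.47 to 0.55 and from -0.30 to 0.64, with intervals beyond 1 under both controls. The other 2 were APOBEC3H with a pseudocount of 1, at 1.75 and 1.45. The 115 include APOBEC1 and APOBEC3A, with at most 2 reads per library, whose intervals are too wide to show a move. With a pseudocount of 1, 13 of the 18 nearest genes stayed among the first 3. Causes were not tested. The added lower calls were low-count members (APOBEC1, APOBEC2 or APOBEC3A), and with APOBEC3H these are the members that depth limits.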
